A study of Homo sapiens with 20 samples.

Results

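The transcripts of 4 genes that restrain p53, MDM2, PPM1D, CCNG1 and MDM4, were followed by RNA-seq in U2-OS cells, a human osteosarcoma line. They were taken by gene symbol from a table of 20314 genes, and all 4 had enough reads to be tested. Cells were left untreated, were harvested 1.5 h (the first phase) or 7 days (the second, senescent phase) after irradiation (IR) with 20 Gy, or carried an shRNA against NFKBIA, which encodes the NF-κB inhibitor IκBα, without irradiation. Each of the 4 groups held 5 libraries. The study calls those of untreated and irradiated cells biological replicates, without saying whether they were separate cultures. For the knockdown libraries it states only that RNA samples were made in quintuplicate. The p-values therefore measure the spread between these libraries. All groups shared the cell line and the growth medium (DMEM with FCS). The paper describes this knockdown as a doxycycline-inducible shRNA in cells pre-treated with doxycycline, and its methods describe puromycin selection of clones. The stated controls were cells with inducible scrambled shRNAs given doxycycline, but none of the 20 libraries is labelled as one. No vector or doxycycline is named for the untreated libraries, so that effects of the knockdown and of such treatments cannot be told apart.

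In undamaged cells p53 is kept scarce because MDM2, a ubiquitin ligase, marks it for destruction and covers its transactivation domain. MDM4 is a relative of MDM2 that binds p53 and pairs with MDM2 but ligates ubiquitin poorly by itself. PPM1D encodes the phosphatase Wip1, which removes phosphates that ATM and its downstream kinases place on p53, on the kinases themselves and on H2AX. CCNG1 encodes cyclin G1, which brings protein phosphatase 2A to MDM2. DNA breaks free p53 from MDM2, and p53 then activates MDM2, PPM1D and CCNG1, closing negative feedback loops, whereas MDM4 is mainly controlled through its protein. U2-OS cells are known to retain functional p53 and to carry a truncating PPM1D allele.

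The best known of these loops is written in the MDM2 gene, which has 2 groups of start sites, 845 bases apart between the windows compared. The inner start lies in the first intron and is the p53-responsive one. The sequence before it is shown because it holds the elements through which p53 acts on MDM2. It is RefSeq sequence of GRCh38.p14, plus strand, chr12:68808903-68809016, and the capitals mark the matches to the p53 response element, a pair of decamer half-sites without a spacer.

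MDM2 inner start: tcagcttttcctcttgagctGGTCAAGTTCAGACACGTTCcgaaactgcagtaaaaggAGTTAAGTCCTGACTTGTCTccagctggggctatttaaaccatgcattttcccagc

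The first match differed from the 20-letter consensus at 2 positions and began 94 bases before the inner start, and the second differed at 3 and began 56 bases before it. Over both strands, 6.39% of 27305 genes with such windows, each from 250 bases before to 50 bases after a start, held a match with at most 3 mismatches, and 0.82% one with at most 2. Of the 4 regulators, all of which had a window, MDM2 was the one with a match, and of 22 p53 target genes with a window 9 held one with at most 3 mismatches. No match says only that these letters were not in these windows. Reads were counted per gene, so transcripts from the outer and inner starts of MDM2 were not separated.

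Counts summed over genes ranged from 22535659 to 40390961 per library, and the lowest count of any of the 4 regulators was 1744. Levels are given as CPM, counts scaled to the library total and then by TMM, a factor that offsets differences in library composition. Changes are log2 fold changes from edgeR's quasi-likelihood test on all 20 libraries, and a gene was called when it changed by more than 0.5 on this scale with a Benjamini-Hochberg adjusted p under 0.05 over 14992 genes. NFKBIA, the target of the shRNA, was at 11.2 to 13.0 CPM in the knockdown libraries and at 23.5 to 42.0 CPM in the untreated ones, without overlap. Markers of mesenchymal and bone cells summed to between 6976 and 14925 CPM per library, but TWIST1 was at or near 0 and COL1A2 reached at most 21 counts. Epithelial markers summed to at most 33.4 CPM, leukocyte markers to at most 2.24 CPM and endothelial markers to at most 2.57 CPM. The mesenchymal and bone sum was 6976 to 7586 CPM in the knockdown and 9529 to 14925 CPM in untreated cells, whose range held both irradiated groups. The epithelial sum was 18.6 to 27.4 CPM in untreated cells, a range that held the 1.5 h libraries. It was 10.8 to 12.1 CPM at 7 days and 29.2 to 33.4 CPM in the knockdown. Lanes and groups overlapped little: untreated and 1.5 h libraries met in lane 3 alone, through untreated replicate 5. The 7 days and the knockdown libraries shared no lane with the untreated ones, so these groups could not be compared with untreated cells within a lane. Untreated replicate 5 had the lowest CCNG1 and the highest PPM1D of the untreated libraries. In bulk RNA a smaller share of expressing cells and less RNA per cell cannot be told apart.

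MDM2 rose at both times after irradiation and had its highest values at 7 days. The untreated libraries had 205, 210.4, 204, 193 and 211 CPM. At 1.5 h post-IR they had 486, 518, 504, 485 and 495 CPM, and at 7 days 719, 702, 708, 699 and 689.7 CPM. The knockdown libraries had 193, 192, 193, 209 and 195 CPM. Untreated, 1.5 h and 7 days libraries did not overlap, while those of the knockdown overlapped the untreated range. The level was 2.43-fold that of untreated cells at 1.5 h, or 1.28 on the log2 scale (standard error 0.04, adjusted p = 4.23e-15 from edgeR), which ranked 40 from the top among all genes tested. At 7 days it was 3.44-fold, or 1.78 (standard error 0.04, adjusted p = 2.06e-18 from edgeR), rank 492. Between the phases MDM2 differed by 0.50 (standard error 0.04, adjusted p = 6.13e-10 from edgeR), which before rounding lay just under the fold threshold, and within lane 4, which held 2 libraries of each phase, it differed by 0.52. In the knockdown the log2 fold change was -0.06 (95% confidence interval -0.14 to 0.02, adjusted p = 0.251 from edgeR).

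PPM1D had the opposite order of phases. The untreated libraries had 79.9, 78.5, 78.3, 77.0 and 99.3 CPM, the last being the library of lane 3. The 1.5 h libraries had 214, 212, 226, 216 and 202 CPM, and those at 7 days 133, 139, 133, 131 and 132 CPM. With the knockdown the values were 78.0, 77.1, 72.7, 76.4 and 78.7 CPM. Every 7 days library thus lay below every 1.5 h library and above every untreated one. The rise was 2.59-fold at 1.5 h, or 1.37 on the log2 scale (standard error 0.06, adjusted p = 4.16e-13 from edgeR) and rank 35 among all genes tested, and it was 1.12 within lane 3. At 7 days it was 1.62-fold, or 0.70 (standard error 0.06, adjusted p = 1.22e-09 from edgeR). From 1.5 h to 7 days PPM1D fell by 0.68 on the log2 scale (standard error 0.06, adjusted p = 1.76e-09 from edgeR), and by 0.64 within lane 4. In the knockdown the log2 fold change was -0.11 (95% confidence interval -0.23 to 0.01, adjusted p = 0.143 from edgeR).

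CCNG1 passed the fold threshold at 7 days and not at 1.5 h. The untreated libraries had 346, 316, 298, 347 and 253 CPM, the widest spread of the 4 regulators, with the lowest value in the library of lane 3. At 1.5 h the values were 382, 392, 383, 384 and 388 CPM, and at 7 days they were 599, 572, 599, 558 and 567 CPM. The knockdown libraries had 393, 390.2, 374, 398 and 399.6 CPM. The libraries at 1.5 h and those with the knockdown overlapped each other, above the untreated libraries and below those at 7 days. At 7 days CCNG1 was called higher than in untreated cells, 1.86-fold or 0.89 on the log2 scale (standard error 0.06, adjusted p = 1.02e-10 from edgeR), and higher than at 1.5 h by 0.59 (standard error 0.06, adjusted p = 6.52e-08 from edgeR). The early difference was 0.30 (standard error 0.06, adjusted p = 0.00157 from edgeR), under the fold threshold, and it was 0.23 without untreated replicate 5, but 0.60 within lane 3, where that library is the sole untreated one. The knockdown differed from untreated cells by 0.33 (standard error 0.06, adjusted p = 0.000318 from edgeR), also under the fold threshold, and by 0.24 without untreated replicate 5. When the lane was added to the fit, the difference was 0.66 and past the threshold. Between the knockdown and 1.5 h the difference was 0.02 (95% confidence interval -0.11 to 0.15, adjusted p = 0.824 from edgeR).

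MDM4 was the regulator not called in any of the 6 comparisons between groups. The untreated libraries had 71.3, 84.3, 79.0, 67.0 and 83.0 CPM, and the 1.5 h libraries 78.3, 84.2, 87.2, 83.3 and 81.5 CPM. At 7 days the values were 69.8, 72.1, 77.9, 76.0 and 69.8 CPM, and with the knockdown 79.8, 81.2, 80.5, 80.5 and 79.6 CPM. All groups overlapped the untreated range. The log2 fold change was 0.11 at 1.5 h (95% confidence interval -0.01 to 0.23, adjusted p = 0.184 from edgeR) and -0.07 at 7 days (95% confidence interval -0.19 to 0.04, adjusted p = 0.270 from edgeR). Between the phases MDM4 differed by -0.18 (standard error 0.06, adjusted p = 0.00853 from edgeR), below the fold threshold, with every 7 days library under every 1.5 h library, and by -0.23 within lane 4.

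**Figure D1:**
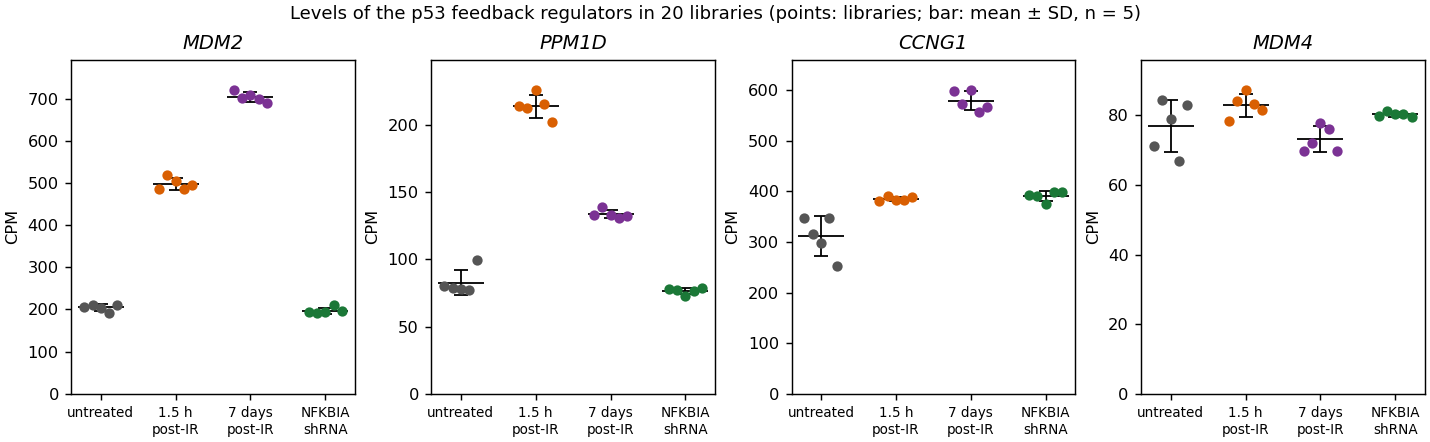
Levels of MDM2, PPM1D, CCNG1 and MDM4 in CPM (y axis, starting at 0) by group (x axis). Points are single libraries in the order of their replicate numbers, and bars give the mean ± SD (n = 5 libraries). MDM2 and CCNG1 were highest at 7 days post-IR, with means of 704 and 579 CPM, PPM1D at 1.5 h, with 214 CPM, and the MDM4 groups lay between 67.0 and 87.2 CPM.

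These counts were read against the background of all genes. At 1.5 h, 2 of the 4 regulators were called higher, where 2.08% of the genes tested were called higher and 1.57% lower (3.66% in all). This background moved with the fit: with the lane as a term it was 11.9% higher and 13.6% lower, and without 1.5 h replicate 2 it was 2.01% higher and 1.04% lower. At 7 days 3 of the 4 were called higher, beside 16.7% of the genes tested (14.4% were called lower, 31.1% in all), and with the knockdown 0 of 4 were called, beside 12.7% of the genes tested (5.18% higher and 7.53% lower). With the lane as a term the background of the knockdown was 13.3% higher and 14% lower, and CCNG1 was then called higher at 0.66. At an unadjusted p under 0.05, and likewise with DESeq2's adjusted p, CCNG1 alone of the 4 differed in the knockdown. Between the phases PPM1D was called lower and CCNG1 higher, beside 12.6% lower and 16.8% higher among the genes tested (29.3% in all). By adjusted p alone, without the fold threshold, 3 of the 4 regulators passed at 1.5 h, 3 at 7 days, CCNG1 with the knockdown and 4 between the phases, beside 21.3%, 64.2%, 40.5% and 60.9% of the genes tested. The comparisons with untreated cells share the same 5 untreated libraries. An exact permutation test of log2 CPM, two-sided, gave p = 0.00794, the smallest that 5 libraries against 5 allow, for every pair of groups that did not overlap (adjusted p = 0.0112 over 24 tests), among them those of CCNG1 in the knockdown and of MDM4 between the phases. Among the genes tested, groups were fully separated for 12.3% at 1.5 h, 44.8% at 7 days, 24.1% with the knockdown and 61.8% between the phases.

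The knockdown was also compared with the irradiated cells, whose libraries are those of the comparisons above. At 7 days MDM2 was 3.58-fold higher than in the knockdown (log2 1.84, adjusted p = 1.91e-18 from edgeR), PPM1D 1.75-fold (0.80, adjusted p = 1.64e-10 from edgeR) and CCNG1 1.48-fold (0.57, adjusted p = 1.32e-07 from edgeR). These 3 calls stand beside 15.8% of genes tested called higher and 9.89% lower (25.7% in all). MDM4 was at -0.13 (adjusted p = 0.0462 from edgeR), under the fold threshold and without overlap, where 57.4% of genes passed by adjusted p alone and 60.7% had groups apart. From 1.5 h to the knockdown the log2 fold change of MDM2 was -1.34 (adjusted p = 5.91e-16 from edgeR) and that of PPM1D -1.48 (adjusted p = 5.19e-14 from edgeR), both called lower, beside 7.6% of genes called lower and 6.54% higher (14.1% in all), and these were also the regulators whose groups lay apart, as 43.6% of genes did, while 41.7% passed by adjusted p alone. With the lane as a term 4.4% of genes were called lower and 3.52% higher.

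**Figure D2:**
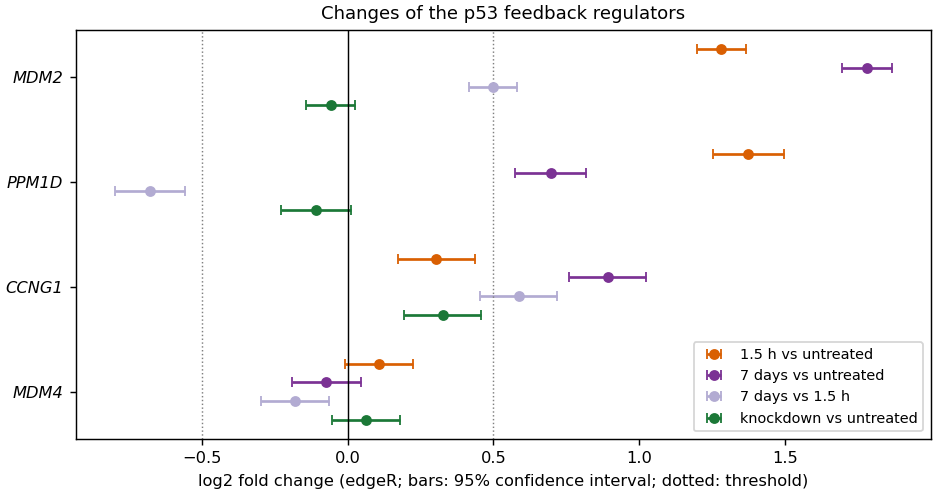
Log2 fold changes of the 4 regulators (x axis) in 4 comparisons, with 95% confidence intervals from edgeR; dotted lines mark the fold threshold at 0.5 in either direction. PPM1D fell by 0.68 between the phases while CCNG1 rose by 0.59, and the intervals of MDM2, PPM1D and MDM4 in the knockdown included 0.

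The order of the 4 groups therefore differed by gene. For MDM2 it ran from 7 days over 1.5 h to untreated cells and the knockdown, of which the last 2 did not differ beyond their spread. For PPM1D it ran from 1.5 h over 7 days to the same pair, which again did not differ beyond the spread. For CCNG1 it ran from 7 days to the knockdown and 1.5 h, which overlapped, and then to untreated cells. For MDM4 it ran from 1.5 h over the knockdown and untreated cells to 7 days, and all neighbours in this order overlapped. On a linear scale, 58.7 ± 1.39% of the 7 days increase of MDM2 was present at 1.5 h, against 27.5 ± 4.86% for CCNG1 and 257 ± 16.4% for PPM1D (standard error, n = 5 libraries per group). For CDKN1A, the gene of the CDK inhibitor p21 and a p53 target outside the feedback set, it was 78.6 ± 2.02%.

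Levels of different genes were compared per kilobase of the length given in the deposited table. How this length was defined is not given in the sources used here, and the comparison between genes depends on it. In untreated cells CCNG1 was the most abundant, at 101 ± 12.6 CPM per kilobase, MDM2 and PPM1D were nearly equal at 25.5 ± 0.925 and 25.4 ± 2.89, and MDM4 was at 6.76 ± 0.661 (SD, n = 5 libraries). At 1.5 h MDM2 reached 62.1 ± 1.72 and PPM1D 65.8 ± 2.61 CPM per kilobase. By 7 days they had parted, at 87.8 ± 1.37 and 41.1 ± 0.948, while CCNG1 was at 187 ± 6.19 and MDM4 at 6.42 ± 0.323. Among all genes tested, MDM2 moved from the 85.8 percentile of such levels in untreated cells to the 95.7 percentile at 1.5 h and the 97.6 percentile at 7 days. The CCNG1 transcript lay between the 97.8 and 99.3 percentile throughout, and that of MDM4 between the 51.5 and 54.9 percentile.

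Ratios within a library, from which the library scaling cancels, showed how far the regulators moved apart. In all, 32 ratio comparisons were tested by exact permutation, two-sided, with adjustment over all of them. The log2 ratio of MDM2 to MDM4 CPM went from 1.42 ± 0.10 in untreated cells to 2.59 ± 0.0466 at 1.5 h and 3.27 ± 0.0748 at 7 days (SD, n = 5 libraries), and no libraries of these groups overlapped (exact permutation test, adjusted p = 0.0115 for each pair). In the knockdown it was 1.29 ± 0.0530, a difference of -0.13 that did not pass (exact permutation test, adjusted p = 0.0529). The log2 ratio of MDM2 to PPM1D was 1.31 ± 0.132 in untreated cells and 1.22 ± 0.0662 at 1.5 h, a difference of -0.10 that did not pass (exact permutation test, adjusted p = 0.195). Without untreated replicate 5, however, this difference was -0.15 and passed (exact permutation test, adjusted p = 0.0331). At 7 days the ratio was 2.395 ± 0.0385, and it differed from that at 1.5 h by 1.18 (exact permutation test, adjusted p = 0.0115).

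The log2 ratio of MDM2 to CCNG1 was 0.37 ± 0.0302 at 1.5 h and 0.28 ± 0.0324 at 7 days, a difference of -0.09 that was small but without overlap (exact permutation test, adjusted p = 0.0115). In the knockdown it was -0.99 ± 0.0475, below the -0.60 ± 0.225 of untreated cells (exact permutation test, adjusted p = 0.0115). CCNG2, a paralogue of CCNG1 that is known as a target of FOXO factors, served as a comparison within the family. It was at 85.9 ± 8.05 CPM in untreated cells, 94.2 ± 6.39 at 1.5 h, 85.9 ± 2.48 at 7 days and 86.8 ± 5.33 with the knockdown (SD, n = 5 libraries), and it was not called in any comparison. The log2 ratio of CCNG1 to CCNG2 rose from 1.86 ± 0.143 in untreated cells to 2.75 ± 0.0210 at 7 days (exact permutation test, adjusted p = 0.0115). It was also higher in the knockdown without irradiation, at 2.17 ± 0.0547 (exact permutation test, adjusted p = 0.0115), and the 2.04 ± 0.0924 at 1.5 h did not pass (exact permutation test, adjusted p = 0.0813). The log2 ratio of MDM2 to CDKN1A was lower at 1.5 h, at -0.47 ± 0.0901, than the -0.14 ± 0.157 in untreated cells (exact permutation test, adjusted p = 0.0115). At 7 days it was -0.21 ± 0.0375, a difference from untreated cells of -0.08 that did not pass (exact permutation test, adjusted p = 0.344). In the knockdown it was -0.40 ± 0.121, a difference from untreated cells of -0.27 that passed (exact permutation test, adjusted p = 0.0331). The libraries of these groups overlapped, and the call was lost in fits with 1 library left out.

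**Figure D3:**
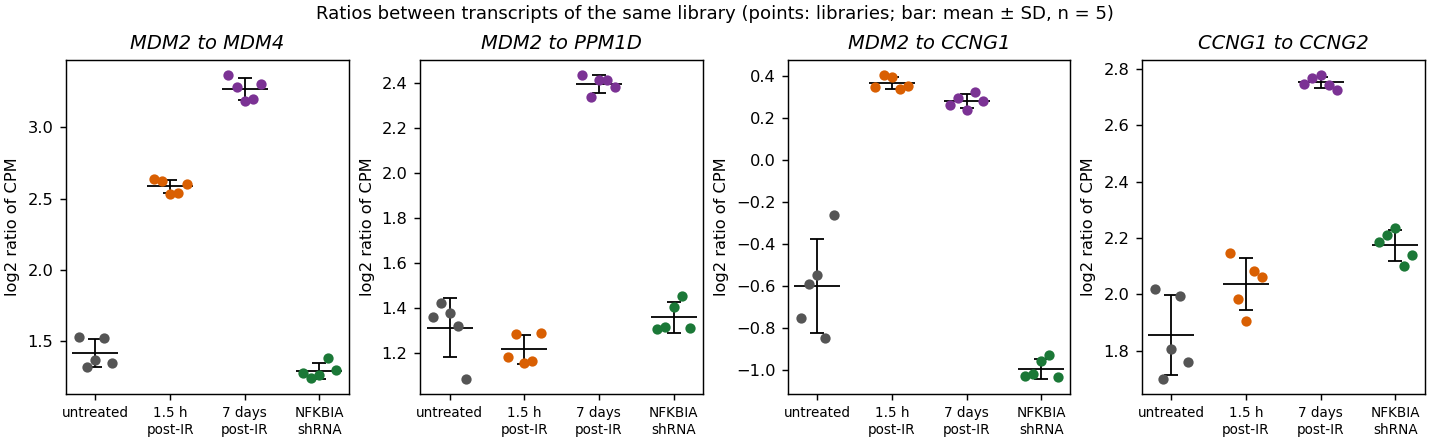
Log2 ratios of CPM between transcripts of the same library (y axis, different ranges) by group. Points are libraries and bars the mean ± SD (n = 5). The ratio of MDM2 to MDM4 stepped up from untreated cells to 1.5 h and 7 days, from means of 1.42 to 2.59 and 3.27, whereas that of MDM2 to PPM1D was 1.31, 1.22 and 2.395.

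The other genes of the pathway were described from lists written from general knowledge. Of 28 further p53 target genes 27 were tested, and 18 were called higher at 1.5 h and 25 at 7 days, 0 lower in either, beside 2.08% and 16.7% of all genes tested called higher and 1.57% and 14.4% lower, with median log2 fold changes of 0.85 and 1.12. The medians of all genes tested were -0.03 and 0.01. The 18 became 17 without untreated replicate 4 and 19 without untreated replicate 5. The 25 became 24 with DESeq2, and also without 7 days replicate 1, 2, 3 or 4 or untreated replicate 1, 2, 3 or 5. CDKN1A had log2 fold changes of 1.61 at 1.5 h and 1.86 at 7 days (standard error 0.05 for both), and GDF15, a secreted stress cytokine, 2.33 and 3.86 (standard errors 0.16 and 0.17). BTG2, an antiproliferative cofactor, had 1.89 and 1.25 (standard error 0.04 for both). Between the phases 8 of the targets were called higher and 2 lower, beside 16.8% and 12.6% of all genes tested, and the 8 became 5 without 7 days replicate 1 or 3. The 2 that fell, as PPM1D did, were BTG2, by 0.63, and BBC3, which encodes the apoptosis inducer PUMA, by 0.54, and BBC3 was picked after its values were seen. With the knockdown 3 targets were called higher, beside 5.18% of all genes tested (7.53% lower), and 0 were called lower, with a median of 0.21. These were GDF15 at 1.54, GADD45A at 0.87 and RRM2B at 0.53, the latter 2 again named after their values were seen. RRM2B was not called without untreated replicate 4 (0.50) or 5 (0.43), which left 2. Without untreated replicate 1 or 2, 4 targets were called higher.

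Next came genes that modify p53 or its regulators. The shares of all genes tested with an unadjusted edgeR p under 0.05 were 33.4% at 1.5 h, 67.3% at 7 days and 48.6% with the knockdown, and the shares called are those given above for the regulators. Of 12 ubiquitin ligases and proteases acting on p53 or MDM2, 0 were called at 1.5 h and with the knockdown (3 and 4 at an unadjusted edgeR p under 0.05, and 0 and 0 called with DESeq2), and at 7 days UBE4B, a ubiquitin chain elongation factor, was called lower at -0.67 (standard error 0.07). Of 11 kinases of p53 or MDM2, 0 were called higher in any comparison with untreated cells with edgeR or DESeq2, although 1 was at 7 days without untreated replicate 2, 3 or 5. An unadjusted edgeR p under 0.05, in either direction, was found for 5 of them at 1.5 h, 8 at 7 days and 6 with the knockdown. AURKA, a mitotic kinase, was called lower at 1.5 h and 7 days, at -0.71 and -1.03 (standard error 0.06 for both), and CHEK1, a checkpoint kinase and Wip1 substrate, at 7 days, at -0.51 (standard error 0.06), a call lost without untreated replicate 1 (-0.47) or 7 days replicate 5 (-0.49). Proliferation genes moved in the same direction at 7 days, with 9 of 12 called lower and a median of -0.87, and their part in the falls of AURKA and CHEK1 was not tested.

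Of 12 other phosphatases of the PP2C family, to which Wip1 belongs, 0 were called at 1.5 h and with the knockdown (3 and 2 at an unadjusted edgeR p under 0.05, and 0 and 0 called with DESeq2), while PPM1D rose by 1.37 at 1.5 h. At 7 days PPM1K, a mitochondrial phosphatase, and PPM1J were called higher at 0.63 and 0.59 (standard errors 0.08 and 0.09), and PPM1H was called lower at -0.72 (standard error 0.11), as was PPM1E at -0.50, named after its value was seen and not called without untreated replicate 2 (-0.30) or 3 (-0.46) or 7 days replicate 1 (-0.48) or 5 (-0.50). These 2 of 12 in each direction stand beside 16.7% of all genes tested called higher and 14.4% called lower, near the background. Of 12 relatives and partners of cyclin G1 tested, among them subunits of protein phosphatase 2A, 0 were called at 1.5 h or with the knockdown (5 and 5 at an unadjusted edgeR p under 0.05, and 0 and 0 called with DESeq2), and 2 were called lower at 7 days, near the background of 14.4%. These were PPP2R5D, a regulatory subunit of that phosphatase, at -0.78 and the cyclin CCNI at -0.64 (standard error 0.04 for both).

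Of 8 MDM2-binding inhibitors tested, ribosomal and nucleolar proteins among them, 0 were called against untreated cells with edgeR or DESeq2, while 3 at 1.5 h, 4 at 7 days and 4 with the knockdown had an unadjusted edgeR p under 0.05, and CDKN2A, which encodes the MDM2 inhibitor ARF, had too few counts to be tested. Of all genes tested, 3.66% were called at 1.5 h, 31.1% at 7 days and 12.7% with the knockdown. Of 11 cofactors of p53, 1 was called higher at 1.5 h, beside 2.08% of all genes tested. This was SIRT1, a deacetylase of p53, at 0.59 (standard error 0.05), chosen after its value was seen, and at 7 days it was at -0.06 (standard error 0.05). At 7 days 3 cofactors were called lower, beside 14.4% of all genes tested. They were the acetyltransferases CREBBP at -0.76 (standard error 0.22) and KAT5 at -0.66 (standard error 0.05) and the p53 inhibitor PPP1R13L at -0.60 (standard error 0.17). PPP1R13L was also called lower with the knockdown, at -0.54 (standard error 0.17). Untreated replicate 5 stood apart for 2 of these genes, with 396 CPM of CREBBP and 195 CPM of PPP1R13L where the other untreated libraries had at most 180.0 and 89.6 CPM. Without it neither was called, with log2 fold changes at 7 days of -0.38 for CREBBP and -0.30 for PPP1R13L, and -0.24 for PPP1R13L with the knockdown. Without untreated replicate 4, in turn, 6 cofactors were called lower at 7 days and 4 with the knockdown. Among the ubiquitin, kinase, PP2C and cyclin G lists, too, single genes passed or missed the threshold with 1 library left out, also where 0 were called.

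**Figure D4:**
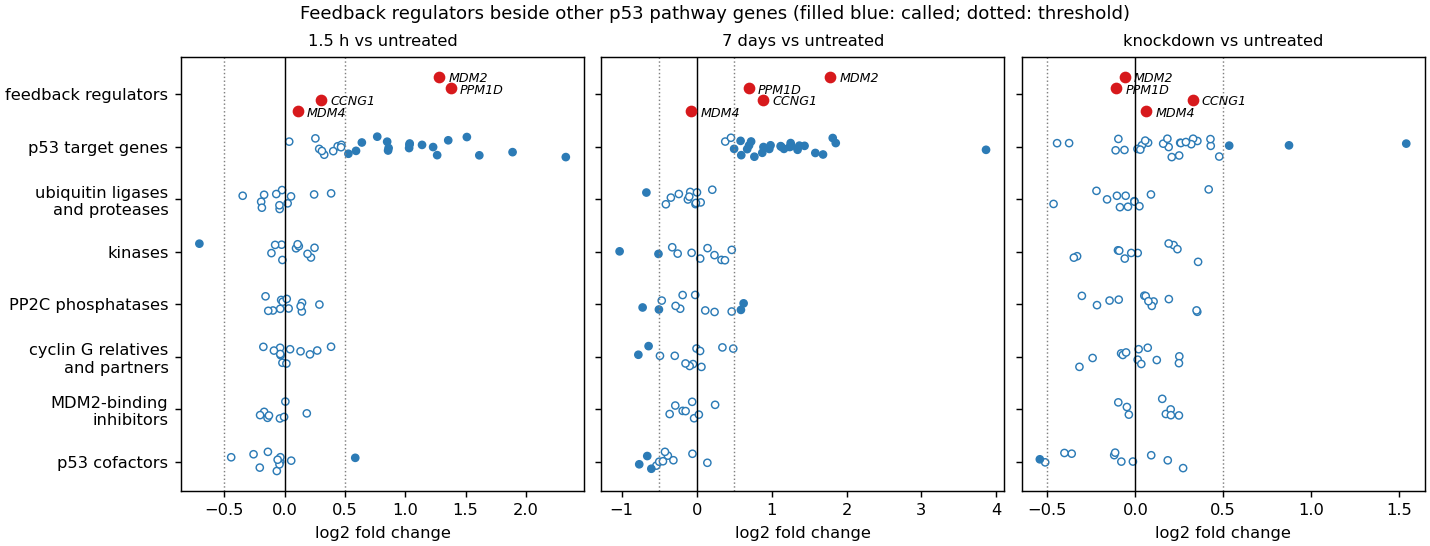
Log2 fold changes (x axis, different ranges) of the 4 feedback regulators (red) and of the pathway lists (blue, 1 point a gene) at 1.5 h, at 7 days and with the knockdown, each against untreated cells. Filled blue points were called and dotted lines mark the fold threshold of 0.5. The p53 target genes lay to the right of 0 after irradiation, with medians of 0.85 and 1.12, beside MDM2 and PPM1D.

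The genes whose levels over the 20 libraries were most like each regulator were listed by Pearson's r of log2 CPM, as a description, since libraries of a group share their treatment. For MDM2 these were EFNB1, INKA2, CSF1, JAG1 and CDKN1A, with r from 0.979 to 0.986. For PPM1D they were BTG2, with r = 0.983, the stress transcription factor ATF3, the NF-κB inhibitor TNFAIP3, RNF19B and SOWAHC, down to r = 0.955. For CCNG1 they were IKBIP, ATP6AP2, NAMPTP1, PELO and NKIRAS1, with r from 0.975 to 0.987. For MDM4 they included PHIP, NHLRC2, SYNE2 and VPRBP, with lower values of 0.884 to 0.888. By rank correlation 3 genes stayed among the first 5 for MDM4 (PHIP, NHLRC2 and SYNE2), 1 for CCNG1 and 0 for MDM2 and PPM1D. Among the regulators themselves r was 0.798 for MDM2 and PPM1D, 0.760 for MDM2 and CCNG1, and 0.303 for PPM1D and CCNG1, and it was -0.454 for MDM4 and CCNG1.

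In the GENCODE 29 annotation the gene of carboxypeptidase M overlaps MDM2 on the other strand. Its counts were 0.208% to 2.48% of those of MDM2 in each library. Of the genes in the table, it was the one found to overlap any of the 4 regulators. The setting for strand in the counting is not given in the sources used here, so that reads of the pair cannot be told apart.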

How the data were processed

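Stranded mRNA libraries of 20 RNA samples from U2-OS cells were read from 1 end on a HiSeq machine. The submitters' processing notes name bcl2fastq, Trimmomatic, STAR 2.4.2a and hg19; the annotation, the counter and the setting for strand are not given in the sources used here. The authors deposited whole-number read counts per gene without normalization and a gene length, which was used as deposited. In the table, 1679 of 20314 genes lacked a symbol, and 1217 were at 0 throughout. Depth was 22535659 to 40390961 counts per library. The closest pair of libraries in a group differed by a mean chi-square of 1.75 per gene, so no library was counted as a duplicate.

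Counts were fitted in R 4.3.3 with edgeR 4.0.16 (filterByExpr with a minimum count of 10, TMM, 1 quasi-likelihood model of all libraries with a term per group). The p-values cover 14992 genes. Standard errors came from the F statistic, and log2 CPM used a prior count of 2. The fit was tested on simulated data. DESeq2 1.42.0 was an alternative, beside other scalings and filters, lanes and left-out libraries; leaving out libraries for the pathway lists was added after seeing the data. Members, lists and tests were chosen with earlier results of these data known. Named genes are the 4 regulators, up to 3 called genes of each list with the largest changes against untreated cells, genes that a ratio or the knockdown needs, and the 5 most like each regulator, of which 1 is not reported here; exceptions are stated. COP1 was matched as RFWD2, and the symbol INKA2 came from a table of gene names. PECAM1 of the endothelial markers was not matched. Figures were drawn with matplotlib 3.10.9.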

Additional observations from a re-analysis of the deposited data

Results flagged for a closer look

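In each group of 5 libraries, a library was noted when its gap to the nearest other, relative to the range of the group, exceeded Dixon's critical value. Of 16 such checks 3 did, and chance gives about 1 in 20. PPM1D was at 99.3 CPM in untreated replicate 5, where the other untreated libraries had 77.0 to 79.9 CPM. This library is the sole untreated one of lane 3, and without it the log2 fold change of PPM1D was 1.44 at 1.5 h and 0.75 at 7 days. MDM2 was at 209 CPM in knockdown replicate 4, above 192 to 195 CPM in the others. PPM1D was at 139 CPM in replicate 2 at 7 days, above 131 to 133 CPM in the others.

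The effects of irradiation at 7 days and at 1.5 h differed by the edgeR test between the phases for all 4 regulators by adjusted p alone, as 60.9% of all genes tested did, by 0.50 for MDM2, -0.18 for MDM4, -0.68 for PPM1D and 0.59 for CCNG1 on the log2 scale, of which those of MDM2 and MDM4 were under the fold threshold.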

How the results depend on the processing

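For the 24 results of the regulators, 238 values with 1 library left out and 241 under other alternatives kept direction and side of the threshold, 1 and 8 newly passed it, and 1 and 3 changed sign. MDM2 between the phases, at 0.50, passed the fold threshold with upper-quartile factors (0.53), library size alone (0.52), a filter of 10 counts in every library (0.50), the lane as a factor (0.54) and within lane 4 (0.52), and it ranged from 0.466 to 0.505 with single libraries left out, where it passed without 7 days replicate 5. CCNG1 passed with the lane as a factor at 1.5 h (0.61) and with the knockdown (0.66), and within lane 3 (0.60); both fits rest on untreated replicate 5. Values near 0 changed sign for MDM2 in the knockdown with library size alone (0.00098), for MDM4 in the knockdown with the lane as a factor (-0.11) and without untreated replicate 4 (-0.0048, in a range up to 0.10), and for MDM4 at 1.5 h within lane 3 (-0.0022). The causes were not tested. Adjusted p for MDM4 between 7 days and the knockdown (0.0462 from edgeR) was 0.450 with the lane as a factor. Same-numbered libraries deviated with correlations of -0.254 to 0.123 and were not paired; with the replicate block MDM2 was at 1.78 at 7 days, and no call of the 4 changed.

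For the ratios 337 values kept both, 7 newly passed, 7 no longer passed and 1 changed sign, which was MDM2 to PPM1D in the knockdown without untreated replicate 5 (-0.012, in a range up to 0.071). MDM2 to CDKN1A in the knockdown, at -0.27, lost its call in 7 fits without 1 library. Called genes at 1.5 h, 312 higher and 236 lower, became 1781 and 2039 with the lane as a factor, 1668 and 2032 within lane 3, 199 and 57 with Bonferroni, 286 and 94 with only the groups compared, and 303 and 157 without 1.5 h replicate 2. At 7 days 2505 and 2152 became 1746 and 1396 with Bonferroni. With the knockdown 777 and 1129 became 1994 and 2094 with the lane and 355 and 544 with Bonferroni. For 7 days against the knockdown 2374 and 1483 became 1592 and 914 with Bonferroni, and for the knockdown against 1.5 h 981 and 1140 became 527 and 659 with the lane and 452 and 644 with Bonferroni.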
